A study of Homo sapiens with 9 samples.

Results

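The melanocyte lineage and pigment genes described here are 10 genes taken by symbol, whatever their level: MITF, PAX3, SOX10, TYR, DCT, MLANA, PMEL, MC1R, EDNRB and RAB38. They are 10 of 58336 genes in the deposited table. Their transcription was followed by precision run-on sequencing (PRO-seq), in which polymerases stalled in permeabilized nuclei extend their RNA by a tagged nucleotide, so that reads mark genes being transcribed rather than RNA that has accumulated. The cells were MEL624, an established human melanoma line, in 3 groups of 3 replicates. KO1 and KO2 are PCIF1 knockout clones, each a single clone, and the control is wild-type MEL624 with a random sgRNA. PCIF1 methylates the adenosine next to the mRNA cap.

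The table gives 1 mean per group over its 3 replicates, so no standard deviation, interval or test accompanies any value, and no difference below can be set against replicate error. A control mean that happened to be off would enter the ratios of both clones, and an effect of the knockout cannot be told apart from variation between clones. Levels are compared between genes as mean normalized counts per kb of the length listed for each gene. That length follows the summed exons and not the span, as for MITF (7181 bases listed, 7419 of exons, a span of 228.9 kb). Whether reads in introns were counted is not known, so ranks between genes depend on that length. Between groups, the count per gene (the deposited value times the length) is used, with log2 ratios taken after adding 1 and only for the 17149 genes with a mean of at least 10 counts. Those ratios understate differences of genes with low counts. Of the 10 lineage genes, 6 reached that level.

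In melanocytes, MITF is the central transcription factor of the lineage. PAX3 and SOX10 are known to act on its promoter, and the signal of the melanocortin receptor MC1R reaches it through cyclic AMP. MITF in turn binds E-box sequences of the CATGTG and CACGTG type at genes for the melanin enzymes (TYR, DCT) and for proteins of the melanosome, the organelle in which pigment is made (PMEL, MLANA, RAB38).

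RefSeq promoter windows (GRCh38.p14, from 250 bases before to 50 bases after an annotated start) were available for 7 of the 10 genes, with 11 starts between them. The 4 windows with a CATGTG or CACATG match are shown because they set pigment genes that were silent or nearly so (TYR, DCT) beside receptor genes that had signal (MC1R, EDNRB). Capitals mark CATGTG or its reverse complement CACATG, extended by 1 base where the letters form TCATGTG or CACATGA, the core of the M-box known from pigment gene promoters. The windows are chr11:89177625-89177924 (plus strand) for TYR, chr13:94479633-94479932 (minus strand) for DCT, chr16:89918612-89918911 (plus strand) for MC1R and chr13:77919633-77919932 (minus strand) for EDNRB.
TYR: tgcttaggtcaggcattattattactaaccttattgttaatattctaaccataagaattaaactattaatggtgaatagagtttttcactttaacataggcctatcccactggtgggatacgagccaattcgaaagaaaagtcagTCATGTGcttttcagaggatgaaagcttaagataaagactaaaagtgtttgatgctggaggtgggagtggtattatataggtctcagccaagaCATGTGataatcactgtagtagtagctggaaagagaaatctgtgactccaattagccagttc
DCT: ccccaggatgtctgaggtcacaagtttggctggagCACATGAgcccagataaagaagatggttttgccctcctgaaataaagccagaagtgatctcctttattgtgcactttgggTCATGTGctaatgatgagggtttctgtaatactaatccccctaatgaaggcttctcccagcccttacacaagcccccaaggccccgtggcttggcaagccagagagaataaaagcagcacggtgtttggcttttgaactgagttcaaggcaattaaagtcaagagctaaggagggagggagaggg
MC1R: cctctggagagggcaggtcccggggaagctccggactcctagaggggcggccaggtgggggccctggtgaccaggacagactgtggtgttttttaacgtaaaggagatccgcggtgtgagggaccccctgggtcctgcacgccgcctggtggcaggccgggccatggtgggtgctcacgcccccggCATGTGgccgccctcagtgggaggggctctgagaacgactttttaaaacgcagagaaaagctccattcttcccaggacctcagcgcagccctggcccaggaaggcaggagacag
EDNRB: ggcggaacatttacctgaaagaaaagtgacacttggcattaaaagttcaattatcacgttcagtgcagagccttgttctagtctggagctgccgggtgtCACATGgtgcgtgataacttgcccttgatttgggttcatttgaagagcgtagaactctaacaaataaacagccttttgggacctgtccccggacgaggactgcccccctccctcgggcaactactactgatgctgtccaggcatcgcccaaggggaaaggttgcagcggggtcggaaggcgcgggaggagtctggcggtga

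TYR carried matches 104 and 12 bases before its start, and the match at 104 was part of TCATGTG. DCT carried them 134 and 215 bases before its start, each as part of the longer form. MC1R had 1 match 64 bases before its start and EDNRB 1 match 151 bases before its start. CATGTG in either orientation is present in 11.1% of 35116 windows of this length, and TCATGTG in 2.92%. CACGTG, present in 7.26% of windows, had no match in the 11 windows. The SOX-type letters ACAATG (10.8% of windows) and ACAAAG (16.1%) each matched 1 MITF window. These are matches of letters and say nothing of binding.

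The cell line's label as a melanoma line was set against marker lists. As background, MEL624 is generally described as positive for melanocyte antigens, including the products of TYR, MLANA and PMEL. Of 8 melanocyte markers (MITF, PAX3, SOX10, TYR, DCT, MLANA, PMEL and TYRP1), 3 reached 10 counts, TYR was listed at 0 in every group, and their summed level was 63.5 counts per kb in KO1, 73.4 in KO2 and 56.1 in control. All 9 markers of the dedifferentiated melanoma state were above 10 counts, with sums of 3463, 3040.3 and 3842, most of it from FOSL1, CCN1 and CCN2. Of 8 Schwann and neural crest markers 5 were above 10 counts, with sums of 74.3, 80.8 and 89.2. The similar sums hide NCAM1, a neural adhesion molecule gene, which had 0.51 counts in KO1, 1.40 in KO2 and 84.3 in control and so reached 10 counts only through the control. It was named after its values were seen. In all, 2 of these 5 (NCAM1 and SOX2) were at least 2-fold lower in KO1 and 1 (NCAM1) in KO2. Of the 9 dedifferentiated markers, 0 were that low in KO1 and 1 (TGFBI) in KO2. Over all compared genes the shares were 1.32% in KO1 and 1.9% in KO2. Among genes of 10 to 50 counts, where NCAM1 and SOX2 lie, they were 3.34% and 4.68%. The other lists were low apart from KRT10 among 6 keratinocyte markers (98.8, 96.0 and 107 in sum, KRT14 at 0). Fibroblast markers summed to 7.93, 6.69 and 3.66, and blood and endothelial markers to 2.57, 3.17 and 2.35, with CD3E at 0. The description of the line is of gene products, whereas these values are of nascent transcription. TYR at 0 and MLANA under 10 counts in all groups, control included, go against it. PMEL, also named in it, had 21.3 counts in KO1, 23.8 in KO2 and 48.4 in control. SOX10 and DCT, which it does not name, were under 10 counts in all groups. The identity of the cells was not tested.

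**Figure D1:**
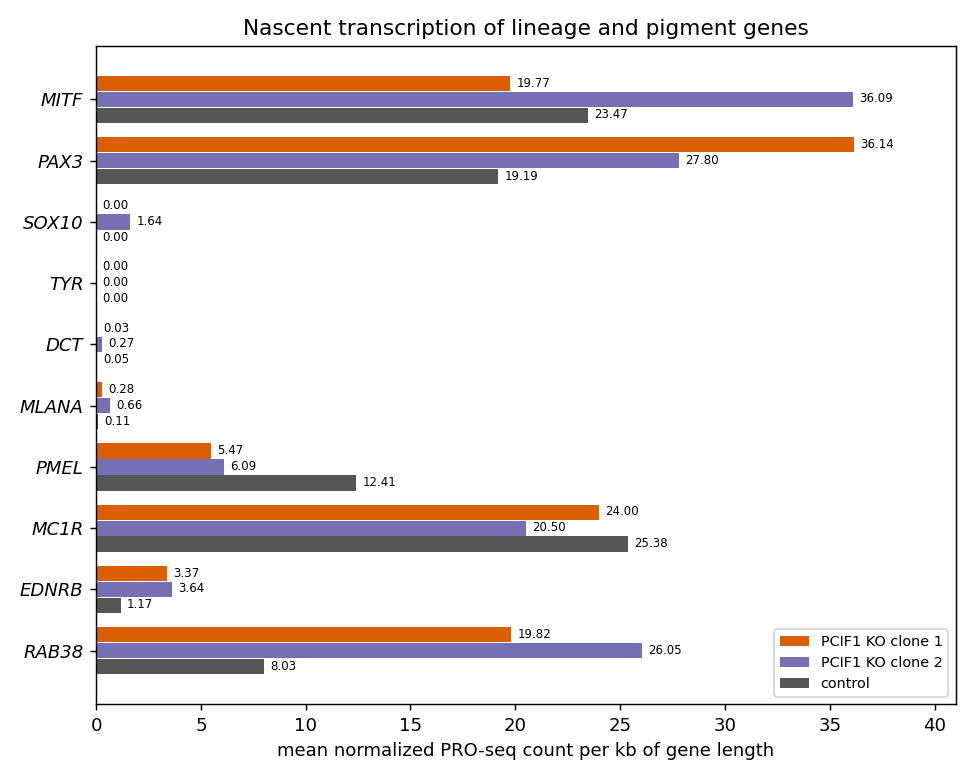
Deposited mean normalized PRO-seq count per kb (horizontal axis) of the 10 lineage and pigment genes, with 1 bar for each group mean and no error bar because the table holds no replicate values. MITF, PAX3, MC1R and RAB38 are the highest genes in both clones, whereas SOX10, TYR, DCT and MLANA stay below 2 counts per kb throughout.

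Among the regulators, MITF (ENSG00000187098; chromosome 3, 69739456 to 69968336, plus strand) had signal in every group. It stood at 19.8 counts per kb in KO1, 36.1 in KO2 and 23.5 in control, higher than 59.4%, 73.6% and 63.0% of protein-coding genes. As counts per gene these are 142, 259 and 169. KO2 was thus the high group and KO1 the low one. The log2 ratio over control was -0.25 in KO1 and 0.62 in KO2, opposite in sign. KO2 over KO1 gave 0.86, outside the central 95% of that ratio among the 6631 genes of 50 to 200 counts (-0.50 to 0.63), a spread that includes true clone-to-clone differences and is not replicate error. MITF has several promoters, and a value per gene does not separate them.

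The neighbours of MITF also differed between the clones. They spanned 23.4 Mb, and those of the other compared lineage genes from 0.830 Mb (MC1R) to 36.1 Mb (EDNRB). Over the 40 nearest compared genes, 20 on each side, the median log2 ratio over control was 0.03 in KO1 and 0.34 in KO2, and 34 of the 40 were higher in KO2 than in KO1. Relative to that local median, MITF was 0.28 above control in KO2 and 0.54 above KO1, and none of the 40 had a KO2 over KO1 ratio as large as that of MITF. FRMD4B, the neighbour with the next largest, chosen after its values were seen, had 94.1 counts in KO1, 155 in KO2 and 41.4 in control. The part of the shared regional difference in the MITF value was not tested.

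PAX3, a paired-box factor of neural crest and melanoblasts (ENSG00000135903; chromosome 2, 222199887 to 222298998, minus strand), was higher in both clones. Its level was 36.1 counts per kb in KO1, 27.8 in KO2 and 19.2 in control, or 287, 221 and 152 counts per gene. The control was the lowest of the 3 groups. The log2 ratios were 0.91 and 0.53, both short of 2-fold. Of the genes with 200 to 1000 counts, 0.602% lay as far above control in KO1 and 7.62% in KO2. The median of its 40 neighbours was -0.00 in KO1 and -0.06 in KO2. CT75, which starts 0.118 Mb from PAX3 and was chosen after its values were seen, was the neighbour farthest above control in KO1, at 97.7 counts in KO1, 61.5 in KO2 and 37.1 in control.

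SOX10, the SOX-family factor of melanocytes and Schwann cells (ENSG00000100146; chromosome 22, 37970686 to 37987422, minus strand), was listed at 0 in KO1 and control. In KO2 it had 1.64 counts per kb, or 6.08 counts per gene, which is under the level of 10 used for ratios. The gene lies within POLR2F on the opposite strand, a polymerase subunit gene with 25.5 counts per kb in KO1, 27.3 in KO2 and 27.7 in control.

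The melanin enzymes were not transcribed at a level that allows a comparison. TYR, which encodes tyrosinase, the rate-limiting enzyme of melanin synthesis (ENSG00000077498; chromosome 11, 89177875 to 89295759, plus strand), was listed at 0 in KO1, KO2 and control. DCT, the dopachrome tautomerase gene (ENSG00000080166; chromosome 13, 94436811 to 94479682, minus strand), had 0.23, 2.04 and 0.38 counts per gene in KO1, KO2 and control. These were the enzyme genes whose promoter windows hold the M-box letters printed above.

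Of the melanosome proteins, MLANA and PMEL differed in level. MLANA, the gene of the melanoma antigen MART-1 (ENSG00000120215; chromosome 9, 5890889 to 5910606, plus strand), had 0.86 counts per gene in KO1, 2.03 in KO2 and 0.34 in control. It lies wholly within KIAA2026, a gene of the opposite strand with 23.4, 21.6 and 24.6 counts per kb, against 0.28, 0.66 and 0.11 for MLANA on the same scale. MLANA thus stayed near 0 inside a gene with signal, and a value per gene does not show whether that signal covered the MLANA stretch.

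PMEL, which forms the amyloid fibrils on which melanin is laid down (ENSG00000185664; chromosome 12, 55954105 to 55973317, minus strand), was lower in both clones. Its level was 5.47 counts per kb in KO1, 6.09 in KO2 and 12.4 in control, or 21.3, 23.8 and 48.4 counts per gene. The clones lay close together and the control was the high group. The log2 ratio was -1.15 in KO1 and -0.997 in KO2, just short of 2-fold. None of its 40 neighbours was as low relative to control in either clone, with neighbour medians of -0.10 and -0.16. The nearest to it in KO1 was ERBB3, 0.123 Mb away, at 12.3 counts in KO1, 21.4 in KO2 and 27.5 in control. PMEL overlaps CDK2 on the opposite strand over 6009 bases. CDK2 had 172, 191 and 217 counts per gene in KO1, KO2 and control, log2 ratios of -0.33 and -0.19. An unnamed noncoding gene on the same strand within PMEL (ENSG00000258554) had 10.2, 12.2 and 9.81 counts, and reads of that pair may be shared. The sources used here do not state whether counting used strand, so it is not known whether reads of CDK2 entered the PMEL value. SOX10 and MLANA, each within an opposite-strand gene with signal, were at or near 0 in KO1 and control. The strand setting was not tested.

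Both receptor genes had signal, at unlike levels. MC1R, the receptor for melanocyte-stimulating hormone (ENSG00000258839; chromosome 16, 89912119 to 89920973, plus strand), had 24.0 counts per kb in KO1, 20.5 in KO2 and 25.4 in control, or 134, 114 and 141 counts per gene. The 3 groups lay close together. The log2 ratios were -0.08 and -0.31. Of the genes with 50 to 200 counts, 39.0% lay as far below control in KO1 and 16.8% in KO2. MC1R overlaps TCF25 on the same strand over 1509 bases, and TCF25 had 507, 519.8 and 473 counts, so reads of that stretch may be split or lost. It lies near the chromosome end, so that 27 neighbours were available, with medians of -0.05 and -0.02.

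EDNRB, the endothelin receptor that melanoblasts need during migration (ENSG00000136160; chromosome 13, 77895481 to 77975529, minus strand), was higher in both clones from a low level. It had 3.37 counts per kb in KO1, 3.64 in KO2 and 1.17 in control, or 18.9, 20.4 and 6.56 counts per gene. The clones were nearly equal. The log2 ratios were 1.40 and 1.50. The control mean is below 10 counts, so EDNRB entered the comparison through the clones. Among the 5232 genes of 10 to 50 counts, 2.96% were as far above control in KO1 and 3.10% in KO2. Neighbour medians were 0.20 in KO1 and 0.15 in KO2. None of the 40 neighbours was as high in KO1, and in KO2 1 of them, SLITRK6, was (11.3, 15.7 and 4.38 counts in KO1, KO2 and control). SLITRK6 was named after its values were seen.

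RAB38, a small GTPase that carries tyrosinase-family enzymes to the melanosome (ENSG00000123892; chromosome 11, 88113251 to 88175443, minus strand), was also higher in both clones. It stood at 19.8 counts per kb in KO1, 26.1 in KO2 and 8.03 in control, or 29.0, 38.2 and 11.8 counts per gene. Per kb it was level with MITF in KO1 but about a gene of middling rank in control, above 45.7% of protein-coding genes there, against 59.5% in KO1 and 65.6% in KO2. The log2 ratios were 1.23 and 1.62. Neighbour medians were 0.05 and 0.19. NAALAD2, the 1 neighbour farther above control in either clone, was named after its values were seen. Its counts were 31.1 in KO1, 47.3 in KO2 and 1.38 in control. TYR lies 1.00 Mb from RAB38 on the same chromosome and was at 0 throughout. An unnamed gene model on the same strand within RAB38 (ENSG00000279733) had 20.8, 15.9 and 11.0 counts, and reads of the pair may be shared.

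Read over the 10 genes, the order of levels changed between groups. In control the order per kb was MC1R, MITF, PAX3, PMEL, RAB38 and EDNRB, followed by MLANA and DCT, with SOX10 and TYR at 0. In KO1 the highest was PAX3, then MC1R, with RAB38 and MITF at 19.8 each. In KO2 it was MITF, then PAX3, RAB38 and MC1R. Without replicate values, none of these neighbours in the order can be said to differ.

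In KO1, EDNRB and RAB38, 2 of the 6 compared genes, exceeded control by at least 2-fold, and 1, PMEL, was at least 2-fold lower. Over all 17149 genes the shares were 2.27% higher and 1.32% lower. In KO2, EDNRB and RAB38 were again at least 2-fold higher (3.34% of all genes) and 0 of 6 were at least 2-fold lower (1.9%). EDNRB, at 6.56 counts in control, passed the minimum only through the clones, so its place in both higher counts partly follows from that filter. Both ratios of a gene share the same control mean, and 284 of all compared genes (1.66%) were at least 2-fold higher in both clones. EDNRB, RAB38 and PMEL all lie between 10 and 50 counts, where such ratios are more frequent, at 5.16% higher and 3.34% lower in KO1 and 6.86% and 4.68% in KO2. Between the clones, 0 of 6 genes differed by at least 2-fold in KO2 relative to KO1, where 1.05% of all genes were higher and 0.933% lower. The median log2 ratio of the 6 genes was 0.41 in KO1 and 0.57 in KO2, against -0.00 and -0.00 for all compared genes. These medians leave out the 4 genes under 10 counts, include EDNRB and are a description only.

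**Figure D2:**
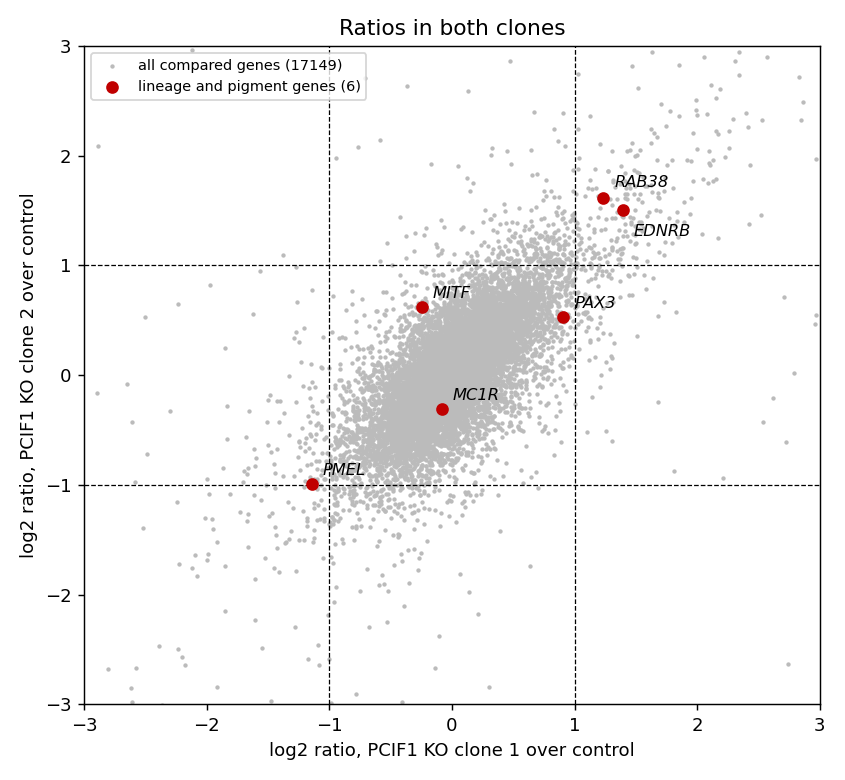
Log2 ratio over control in KO1 (horizontal axis) and KO2 (vertical axis) for the 17149 compared genes in grey and the 6 compared lineage genes in red, with dashed lines at 2-fold and 100 genes beyond the plotted range. EDNRB and RAB38 lie above 2-fold in both clones, PMEL at the lower corner, and MITF where KO1 is below and KO2 above control. Both axes share the control mean.

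**Figure D3:**
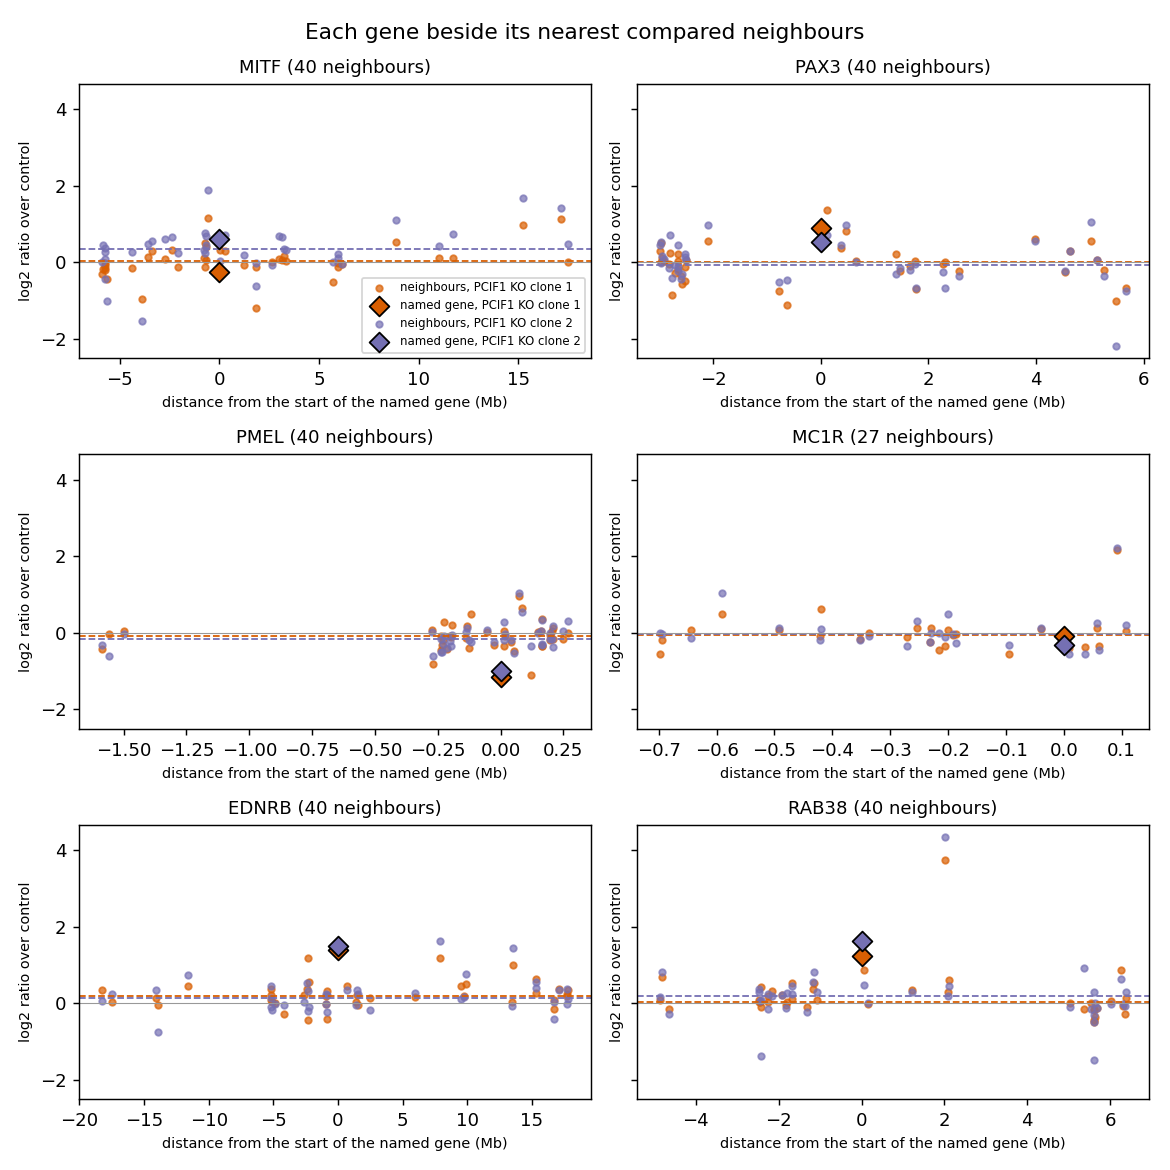
Log2 ratio over control (vertical axis) of each compared lineage gene (diamond) and its nearest compared neighbours (dots) by distance in Mb (horizontal axis), with KO1 in orange, KO2 in purple and dashed lines at the neighbour medians. For MITF the KO2 line lies at 0.34 and the KO1 line at 0.03, whereas PMEL, EDNRB and RAB38 stand away from both of their lines.

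The wider set of pigment-cell genes comprised 110 genes in 6 lists, of which 78 reached 10 counts. Their median log2 ratio was 0.01 in KO1 and -0.06 in KO2, with 40 and 35 of the 78 above 0. At least 2-fold higher was 1 gene in each clone and at least 2-fold lower were 2 genes in KO1 and 0 in KO2. Over all compared genes the shares were 2.27% higher and 1.32% lower in KO1, and 3.34% and 1.9% in KO2, so counts this small are near the background.

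The gene at least 2-fold higher was RAB17, a Rab GTPase of vesicle transport (chromosome 2, start 237574322). It had 84.5 counts in KO1, 115 in KO2 and 12.0 in control, log2 ratios of 2.72 and 3.16, the farthest from control of the 78. Its 40 neighbours had medians of 0.51 and 0.40, so RAB17 lies in a region higher in both clones. MLPH, the melanophilin gene of melanosome transport, starts at 237485428 on the same chromosome, where its neighbours had medians of 0.53 and 0.49. MLPH itself was lower, at 145 counts in KO1, 128 in KO2 and 215 in control.

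The genes at least 2-fold lower in KO1 were SOX2, a neural crest and stem cell factor, and ERBB3, the neuregulin receptor. SOX2 had 10.6 counts in KO1, 51.5 in KO2 and 34.8 in control. It was low in KO1 and high in KO2, as was MITF. ERBB3, given above beside PMEL, was lowest in KO1 as well.

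By list, 5 of 11 genes of melanin synthesis and melanosomal transport reached 10 counts, with medians of 0.08 in KO1 and 0.03 in KO2. The other 6 were TYRP1, OCA2, SLC45A2, SLC24A5, GPR143 and SLC24A4, named after their values were seen. SLC45A2 was the highest of them, at 7.22 counts in KO1, 7.12 in KO2 and 10.6 in control. TYRP1, the enzyme gene closest to TYR and DCT, had 6.81, 3.03 and 3.33. The 2 highest per kb in control were SLC7A11, the cystine transporter gene (58.5, 54.7 and 53.6 counts per kb in KO1, KO2 and control), and MFSD12 (37.3, 43.9 and 52.2), and neither gene is restricted to pigment cells.

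All 20 genes of the HPS, BLOC and AP-3 complexes, which build lysosome-related organelles in many cell types, reached 10 counts. Their medians were -0.09 in KO1 and -0.07 in KO2, and none was 2-fold off. HPS5 (91.5, 83.9 and 59.7 counts per kb in KO1, KO2 and control) and BLOC1S2 (41.5, 57.3 and 54.1) were the highest in control. Of 14 genes of melanosome structure and movement 12 reached 10 counts, with medians of 0.13 and -0.06. RAB32, which acts beside RAB38 in melanosome biogenesis, had 76.6, 86.9 and 68.4 counts per kb, log2 ratios of 0.16 and 0.34. CD63, a tetraspanin that takes part in sorting PMEL, had 46.6, 43.5 and 52.9.

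Of 22 lineage factors and MITF relatives 17 reached 10 counts, with medians of 0.06 and -0.04. The highest in control were MSX1 (191, 174 and 185 counts per kb) and USF1, an E-box factor (236, 219 and 179). Of 19 receptor, ligand and signalling genes 11 reached 10 counts, with medians of 0.08 and 0.01. EDN1, which encodes a ligand of EDNRB, had 46.6 counts per kb in KO1, 42.5 in KO2 and 34.1 in control, log2 ratios of 0.44 and 0.31. GNAS, the G-protein gene through which MC1R acts, had 46.8, 38.8 and 38.6. Of 24 other MITF targets 13 reached 10 counts, with medians of -0.17 and -0.19 and 4 of 13 above 0 in each clone. DUSP4 (206, 178 and 283 counts per kb) and MET (78.2, 68.7 and 92.3) were the highest in control, and both were lower in the clones by less than 2-fold.

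**Figure D4:**
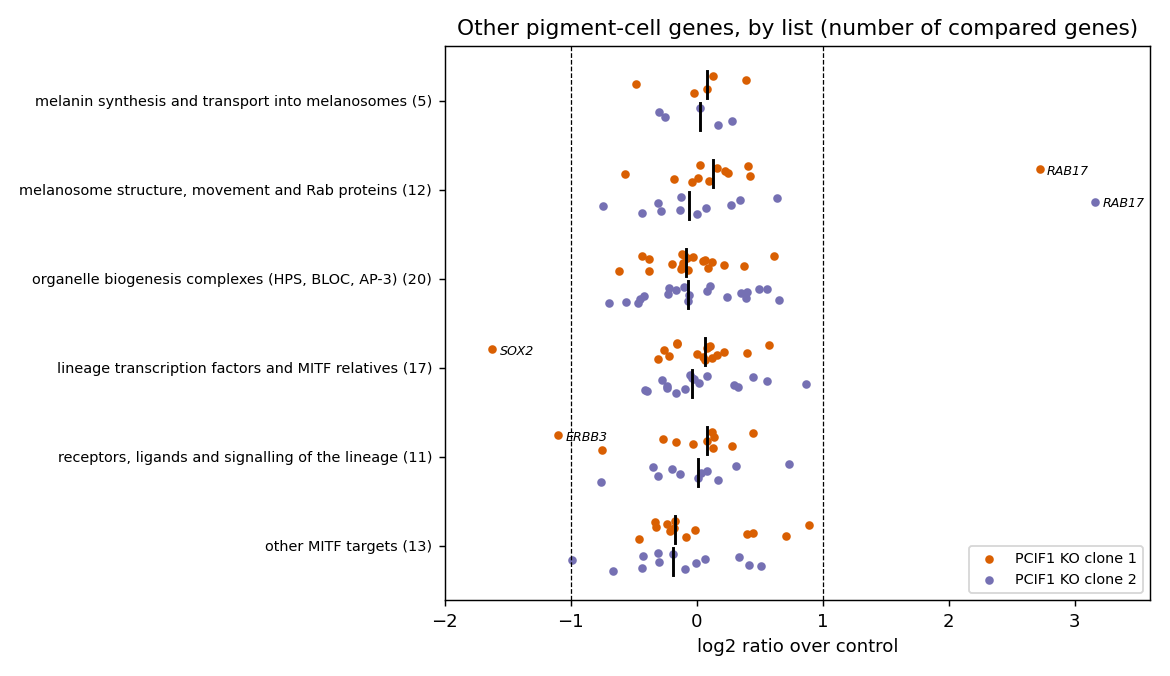
Log2 ratio over control (horizontal axis) of the 78 compared genes of the wider lists, with 1 dot per gene and clone, black ticks at the list medians and dashed lines at 2-fold. Most genes lie within 2-fold of control, and RAB17, SOX2 and ERBB3 are the genes beyond it.

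The genes of these lists nearest to each lineage gene were taken by the distance between their pairs of log2 ratios (KO1 and KO2 over control), which rest on 3 group means. MITF was nearest to HPS6 (distance 0.22) and AP3M1 (0.33). Both lie on chromosome 10, where their neighbours had KO2 medians of 0.26 and 0.52. PAX3 was nearest to PPARGC1A (0.20) and HPS5 (0.30), and PMEL to ATRN (0.46) and MLPH (0.63). The neighbours of ATRN, a gene of chromosome 20, had medians of -0.67 and -0.71, close to its own ratios of -0.75 and -0.76. MC1R, which lay near control, was nearest to GNA11 (0.05) and BEST1 (0.07). EDNRB and RAB38 had no near match in these lists, with PPARGC1A at 1.27 and TFEB at 1.26 as their closest. The lineage genes were not matched with each other. Of all compared genes, 206 lay within 0.25 of MITF, 193 of PAX3, 52 of PMEL and 3989 of MC1R. For EDNRB and RAB38 these were 51 and 36, so a small distance is not particular to pigment-cell genes.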

How the data were processed

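The 9 PRO-seq libraries were grouped by their titles as KO1, KO2 and control (3 each). Per the file header, the authors deposited a mean signal per group, the normalized count per kb, beside a length for each gene. The header has a name more than the rows have cells, and the gene symbol is taken as the missing cell, since the next cell matches the summed exon length in GENCODE release 44 for 64.4% of 57754 matched identifiers. Per the submitters' processing notes, the tools were DESeq2, featureCounts, Bowtie 1.2.2 and cutadapt 1.14, and the builds hg38, dm3 and GRCh38.p12. The role of each, the strand setting and any spike-in scaling were not given in the sources used here. Depth per library is unknown, and summed normalized counts were 3759168 in KO1, 3823178 in KO2 and 3760730 in control. Values are rounded to 0.01.

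Deposited values were multiplied by length in kb. Log2 ratios used a pseudocount of 1 and genes with a mean of at least 10 counts. Nothing was tested, since no replicate values are held. Neighbours were the 20 nearest compared genes on each side by start. Symbols and positions (GRCh38) come from GENCODE release 44, promoters from RefSeq. The rule for named genes took the 10 genes, genes annotated as overlapping them, in each wider list those 2-fold off or more in a clone and the 2 highest per kb in control, and the 2 nearest by ratios. Others, among them neighbours and single markers, were chosen after their values were seen, whether or not this is said beside them. Not every overlapping gene is reported. The members and lists were chosen with earlier results of these data known. Ratio code was checked on simulated data. Python 3.11.15, numpy 2.4.6, pandas 2.3.3 and matplotlib 3.10.9 were used.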

Additional observations from a re-analysis of the deposited data

How the results depend on the processing

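Ratios of the 6 compared genes were recomputed with pseudocounts of 0.5 and 5, quantile normalization, median-of-ratios rescaling, a minimum of 50 counts, no filter, values per kb, subtraction of the median of 40 neighbours and, added after the data were seen, no pseudocount. Of 147 recomputed ratios, 145 moved by less than 1 SD of the ratio between the clones at that count and none of those at least 2-fold off changed sign. The other 2 are MITF minus its neighbours, 0.28 for KO2 over control and 0.54 for KO2 over KO1. Counts of the lineage genes at least 2-fold off rest on genes of few counts. With a minimum of 50 counts none remained (0 higher in KO1 and KO2, 0 lower in KO1). Per kb, where EDNRB and PMEL fall below the minimum of 10, 1 was higher in each clone and 0 lower in KO1. With no filter, 5 were higher in KO2 than in control and 2 higher than in KO1, which adds genes of under 10 counts. PMEL brings the lower count in KO2 to 1 under quantile normalization, a pseudocount of 0.5 and no pseudocount. For the wider lists, no filter gave 5 higher and 6 lower in KO1, 6 higher and 3 lower in KO2, and 4 higher and 4 lower for KO2 over KO1. The lower count in KO1 was 1 with a pseudocount of 5 and per kb, 0 with a minimum of 50, and 3 with neighbours subtracted. The lower count in KO2 was 1 with a pseudocount of 0.5, no pseudocount and neighbours subtracted. For KO2 over KO1 the minimum of 50 gave 0 higher and 0 lower, and values per kb 0 lower. No paired analysis was possible because the table holds no value per replicate, and for the same reason no replicate could be left out. Unknown depth limits every gene under 50 counts.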

Other observations

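Some genes related to the lineage set were looked at after their values were seen, and their values are given without explanation. SOX9, a SOX factor related to SOX10, had 122 counts per kb in KO1, 94.8 in KO2 and 115 in control. Of the MITF relatives, TFE3 had 31.0, 37.5 and 37.1 counts per kb in KO1, KO2 and control, TFEB 2.71, 4.37 and 2.31, and TFEC 0.14, 0.24 and 0. BCL2A1, a survival gene listed among MITF targets, had 5.97 counts per gene in KO1, 11.8 in KO2 and 0.38 in control. KIT, the receptor of stem cell factor in melanoblasts, was at 0 in both clones and at 0.33 counts in control, while its ligand gene KITLG had 151 counts in KO1, 233 in KO2 and 140 in control.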
